A study of Danio rerio with 4 samples.

Results

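The cytosolic ribosomal protein genes code for the proteins that, with ribosomal RNA, build the small and large subunits of the ribosome. They were taken as every gene of the deposited tables whose symbol is *rpl*, *rps* or *rplp* followed by a digit, or *rpsa*, leaving out the S6 kinase genes (*rps6k*) and symbols with a hyphen or colon. This gave 83 of 28357 genes, of which 48 were named for the large subunit and 34 for the small subunit. The remaining gene, *rps19bp1*, is named for an Rps19 binding protein, which is not a subunit of the ribosome, and was kept because its symbol meets the rule. Large-subunit and small-subunit genes below are grouped by symbol alone. Whether the product of each, such as that of *rpl7l1*, is part of the mature ribosome was not checked. All 83 were found in each of the 4 libraries.

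The cells came from kidneys of adult zebrafish of the AB strain, 4 days after each fish received 20 μl of gentamicin at 2.7 μg/μl into the body cavity. Gentamicin is an aminoglycoside antibiotic that damages kidney tubules. Every library was of this 1 condition, and no uninjured kidney was sequenced, so the comparisons are between cell classes and not between injured and uninjured fish. Cells were captured with the BD Rhapsody system, and the 3′ ends of polyadenylated transcripts were counted with unique molecular identifiers (UMIs). The number of fish in each library is not given in the sources used here, so that p-values over libraries measure the spread between libraries, which may be technical.

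Ribosomal protein mRNAs are among the most abundant in animal cells. Most carry a terminal oligopyrimidine (TOP) tract at the 5′ end, through which growth signals control their translation, and new ribosomes are assembled in the nucleolus as ribosomal RNA is made and processed. The zebrafish kidney holds both nephrons and the blood-forming marrow, so a single tissue yields hematopoietic stem and progenitor cells (HSPCs), their precursors and mature blood, together with renal stem cells (RSCs) and proximal and distal tubular epithelial cells (PTECs and DTECs). In human, mutations of several ribosomal protein genes cause Diamond-Blackfan anemia, in which red cell precursors fail.

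Of 286049833 UMIs in 31008 cells, 42522442 (14.9%) came from the 83 genes. Libraries held 5821 to 9831 cells and 59350367 to 87759842 UMIs. The ribosomal protein share was 18.8%, 18.5%, 12.3% and 12.1% in libraries 1, 2, 3 and 4. Libraries 1 and 2 thus stood above libraries 3 and 4, and the mitochondrial share ran the other way, at 5.64% and 5.71% in the first pair and 19.0% and 19.4% in the second. With mitochondrial genes left out of the total, the ribosomal protein share was still 19.9% and 19.6% in the first pair, against 15.2% and 14.96% in the second. For 68 of the 83 genes the level was higher in libraries 1 and 2 in all 24 cell classes, with median ratios that ran from 1.08 (*rpl29*) to 2.76 (*rps14*). Barcodes of libraries 1 and 2 also drew on another range of numbers than those of libraries 3 and 4. Libraries 1 and 2 shared 108 barcodes, libraries 3 and 4 shared 46, and every other pair shared at most 7. What set these pairs of libraries apart was not tested. Values below are therefore given per library or as a mean over the 4 libraries, whose SD includes this gap.

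Cells were grouped into 28 clusters with the ribosomal protein, mitochondrial and other translation genes left out, and a cluster was called "X-like" by marker genes. This gave 24 classes, of which 6 were unnamed clusters. The marker sums below describe the classes compared. They do not test the names, because the clusters were named and split by these same markers. The 10 HSPC markers summed to 2607 to 3019 counts per 1000000 UMIs (CPM) in HSPC-like cells, against 112 to 207 CPM in mature neutrophil-like cells. The 14 RSC markers, which came in part from the study itself, summed to 3563 to 7894 CPM in RSC-like cells, against 184 to 251 CPM in PTEC-like cells, where *six2a* was at 0. The 12 markers of cycling cells summed to 4163 to 4430 CPM in cycling erythroid-like cells, against 30.5 to 103 CPM in non-cycling erythroid-like cells. The RSC-like class was small, with 34, 57, 20 and 18 cells in libraries 1 to 4. Of these, 13 and 25 cells in libraries 1 and 2 had more UMIs of ovarian follicle markers than of a core of RSC markers, and libraries 3 and 4 had 0 such cells. The follicle list summed to 0 to 1122 CPM in the RSC-like libraries with 7 of its 8 genes found and *zp3* at 0, and the shares and member counts of this class are also given without those cells below.

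**Figure D1:**
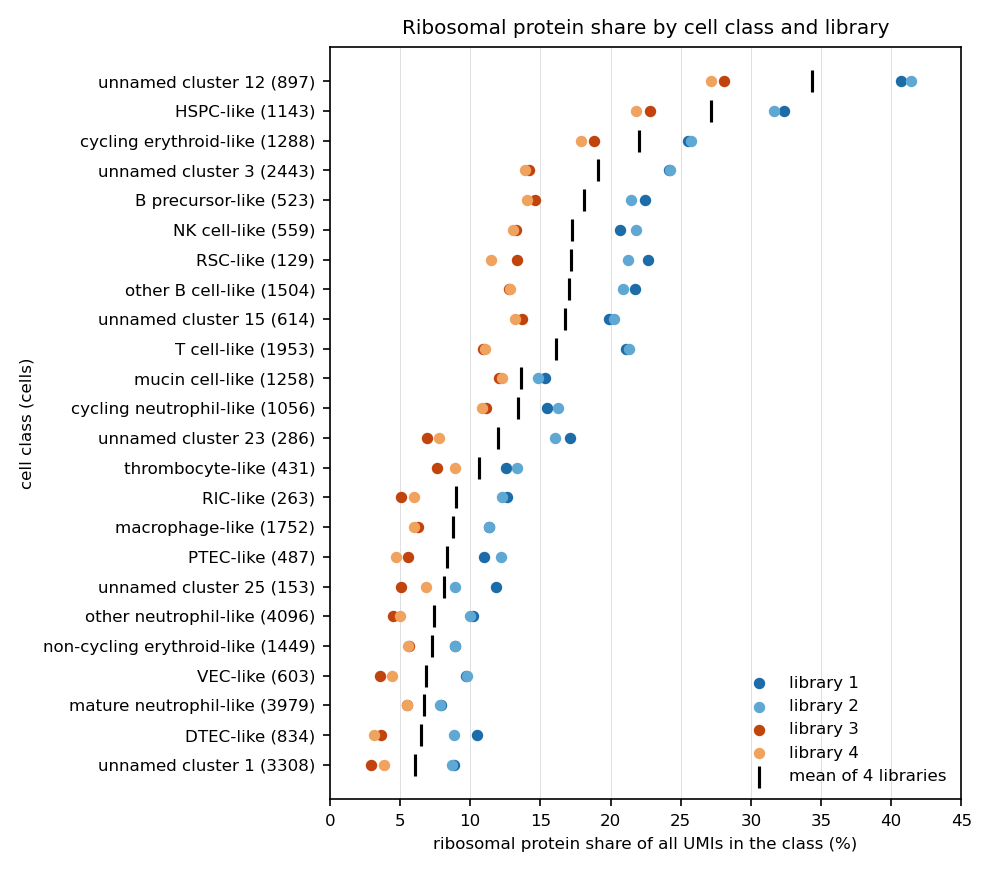
Share of all UMIs that came from the 83 ribosomal protein genes (x axis, %) in each of 24 cell classes (y axis, with the number of cells), as 1 point per library and a bar for the mean of the 4 libraries. Class means run from 34.3% in unnamed cluster 12 to 6.06% in unnamed cluster 1, and in every class both points of libraries 1 and 2 lie above both points of libraries 3 and 4.

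The share of UMIs given to ribosomal protein genes differed several-fold between cell classes. It was highest in a cluster without a name, cluster 12, with 40.7%, 41.4%, 28.1% and 27.14% in libraries 1 to 4, and this cluster ranked first in every library. Its leading genes included *blf*, *hdac7b*, *pabpc4* and *mycb*. The HSPC markers summed to 795 to 1696 CPM there and the cycling markers to 146 to 245 CPM, against 1535 to 2191 CPM of cycling markers in HSPC-like cells. HSPC-like cells came second in every library, with 32.3%, 31.6%, 22.8% and 21.8%, and cycling erythroid-like cells followed them in every library, with 25.5%, 25.8%, 18.8% and 17.9%. These steps, and that from cycling erythroid-like cells to the next class, unnamed cluster 3 (mean 19.1%), held in 4 of 4 libraries. From unnamed cluster 3 downward no pair of neighbours in the order of means kept its order in all 4 libraries. The order of neighbouring classes below cycling erythroid-like cells, cluster 3 among them, was therefore not resolved. Some of these classes still kept to a narrow range of ranks over the libraries. Ranks were 4 to 5 for cluster 3 and 11 to 12 for cycling neutrophil-like cells, against 5 to 10 for RSC-like cells.

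In the nephron classes the share was 22.6%, 21.2%, 13.3% and 11.5% in RSC-like cells, 10.98%, 12.2%, 5.54% and 4.68% in PTEC-like cells and 10.5%, 8.86%, 3.63% and 3.15% in DTEC-like cells. Among named mature blood classes the lowest mean was that of mature neutrophil-like cells, at 7.96%, 7.84%, 5.47% and 5.48%. The lymphoid classes lay above them in each library, with 21.7%, 20.9%, 12.8% and 12.8% in other B cell-like cells, 21.1%, 21.3%, 10.9% and 11.1% in T cell-like cells and 20.7%, 21.8%, 13.3% and 13.1% in natural killer (NK) cell-like cells. The share was 11.4%, 11.4%, 6.27% and 5.99% in macrophage-like cells and 12.6%, 13.3%, 7.63% and 8.89% in thrombocyte-like cells. Interstitial (RIC-like) cells had 12.7%, 12.2%, 5.10% and 5.98%, and vascular endothelial (VEC-like) cells 9.69%, 9.79%, 3.59% and 4.45%.

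Single cells within a class were spread around these values. In HSPC-like cells, 97.5%, 96.3%, 70.2% and 68.4% of cells in libraries 1 to 4 had more than 20% of their UMIs from ribosomal protein genes. In RSC-like cells these were 41.2%, 33.33%, 5% and 0%, the last being 0 of 18 cells, a count that would allow at most 16.7%. The PTEC-like shares were 5.45% and 6.72% in libraries 1 and 2, and 0 of 90 and 0 of 98 cells passed in libraries 3 and 4, which allows shares of up to 3.33% and 3.06%. These limits cover counting error only. Of 3979 mature neutrophil-like cells 1 passed this level.

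The small subunit's genes held 41.6% of all ribosomal protein UMIs, and the library values of the classes compared lay between 39.5% and 43.9%. Of the 83 genes, 79 averaged above 500 CPM over classes, and the 10 highest held 22.6% of the ribosomal protein UMIs. A UMI counts a transcript once whatever its length, so levels of different genes are set side by side in CPM without a length term. The 5 highest were *rps2* (3988 CPM, mean over classes), *rplp1* (3760 CPM), *rps20* (3411 CPM), *rpl39* (3027 CPM) and *rps19* (2954 CPM). Rplp1 is a protein of the ribosomal stalk, which recruits translation factors, Rpl39 is a small protein of the exit tunnel, and *RPS19* is the gene most often mutated in human Diamond-Blackfan anemia. The 5 lowest were *rps8b* (0.346 CPM), *rps19bp1* (19.0 CPM), *rpl7l1* (52.3 CPM), *rpl22l1* (425.5 CPM) and *rpl27a* (602.8 CPM).

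The genes were nearly all highest in the same class. Of the 83, 78 had their highest mean level in cluster 12. The exceptions included *rplp2*, highest in T cell-like cells (2542 CPM), *rpl7l1* and *rps19bp1*, highest in HSPC-like cells (138 and 34.1 CPM), and *rps8b*, highest in DTEC-like cells (3.98 CPM). *rps8b* had 78 UMIs in all, with 5.32, 7.80, 1.37 and 1.42 CPM in DTEC-like cells and 0 in all 4 RSC-like sums, whose 1356742 UMIs together allow up to 2.21 CPM.

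The make-up of the ribosomal protein mRNA varied much less than its amount. As a share of all ribosomal protein UMIs, 73 of 83 genes stayed within a 2-fold range over the 24 classes, 6 ranged from 2- to 4-fold, and 4 ranged more widely. Of these 4, *rpl22l1* ranged 4.71-fold, *rpl7l1* 6.25-fold and *rps19bp1* 6.72-fold, and *rps8b* was at 0 in some classes. The widest of the middle group was *rplp2*, at 0.680% of ribosomal protein UMIs in RSC-like cells and 2.50% in mature neutrophil-like cells. It was followed by *rps27.2* (2.91-fold), *rplp0* (2.86-fold) and *rpsa* (2.49-fold). The log profiles of 82 genes correlated between pairs of classes with r from 0.915 to 0.998 (median 0.976, over genes, which share libraries and are not independent replicates). Mean levels of these genes ran from 19.0 CPM (*rps19bp1*) to 3988 CPM (*rps2*). So wide a spread by itself raises r, which therefore says little about an even make-up.

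To ask how the genes differ along blood and nephron lineages, 7 pairs of classes were compared. Mature neutrophil-like, RSC-like and HSPC-like cells each serve in more than 1 of them, so these comparisons share samples. The share per library was compared with a two-sided exact permutation test over 4 against 4 libraries (smallest possible p = 0.0286). It was adjusted by Benjamini-Hochberg over the 7 and called at an adjusted p of at most 0.05, the value reached when 4 of the 7 have the smallest p. Even a comparison with the smallest p can thus lose its call when other comparisons change. Single genes were tested on summed counts by the quasi-likelihood method of edgeR, with p-values adjusted by Benjamini-Hochberg over all genes, and a gene was called at an adjusted p below 0.05. In each comparison 82 of the 83 genes passed the filter on low counts, all except *rps8b*. Because both classes of a comparison came from the same 4 libraries, the edgeR fit with the library as a block is given beside the unblocked one where it moves a count by more than 1.5-fold.

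**Figure D2:**
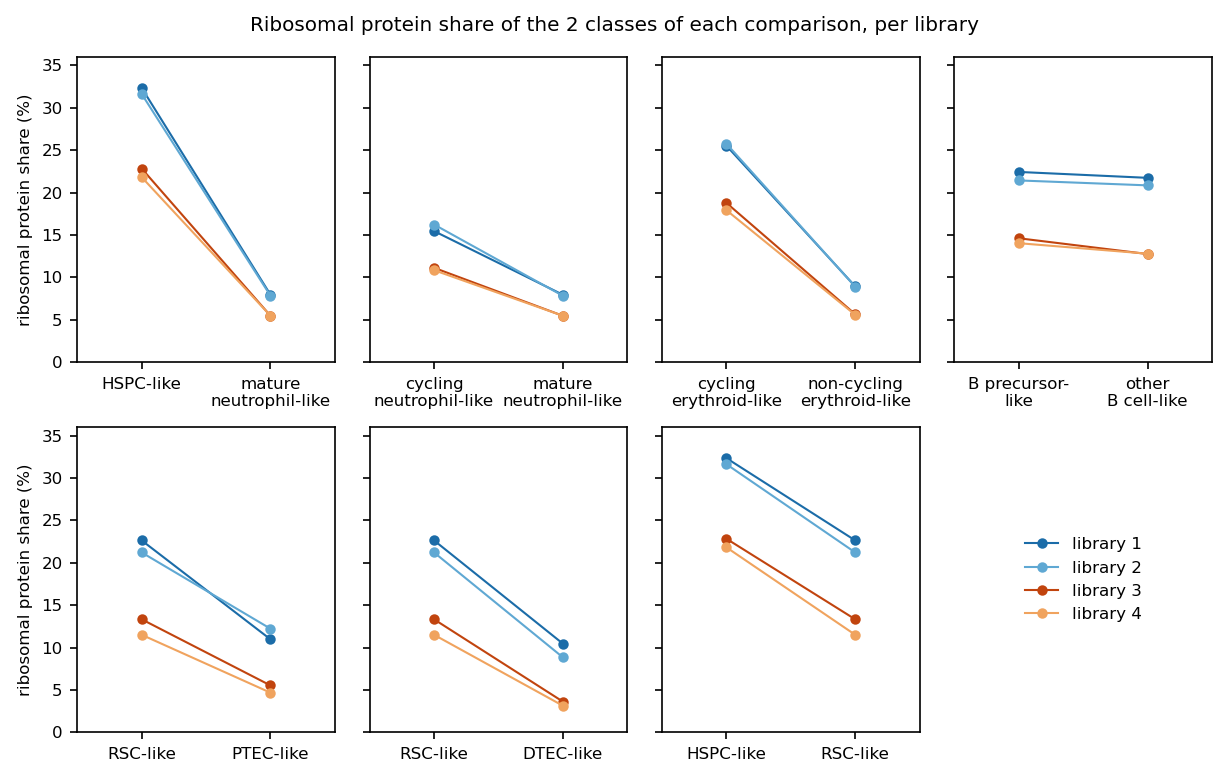
Ribosomal protein share of all UMIs (y axis, %) in both classes of each comparison, with 1 line per library. All 28 lines fall from the left class to the right class, by a ratio of 3.99 to 4.17 for HSPC-like against mature neutrophil-like cells and of 1.03 to 1.15 for B precursor-like against other B cell-like cells.

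HSPC-like cells held about 4 times the ribosomal protein share of mature neutrophil-like cells, and nearly every member was higher. The share averaged 27.16 ± 5.60% in HSPC-like cells and 6.68 ± 1.40% in mature neutrophil-like cells (SD, n = 4 libraries each), a difference of 20.5 percentage points that was present in 4 of 4 libraries without overlap (exact permutation p = 0.0286, adjusted p = 0.05). The ratio lay between 3.99 and 4.17 in single libraries. The call was lost with classes gated by markers alone (21.0 points, adjusted p = 0.1) and without the 6% of cells with the highest doublet scores, which rate how alike a cell is to a mix of other cells (20.5 points, adjusted p = 0.0667). In both runs the adjusted p also depended on the other comparisons. Of 82 members 79 were called higher and 0 lower, against 30.4% of all 12430 genes tested called higher and 29.4% called lower. These were 46 of 48 large-subunit and 33 of 33 small-subunit genes. The median log2 fold change was 1.79 over the members and −0.01 over all genes tested. The groups did not overlap in 81 members, but non-overlap was not counted over all genes tested, here or below, so these counts have no background. Those not called were *rpl19* (1.2, edgeR adjusted p = 0.0515), *rps19bp1* (0.67, adjusted p = 0.0620) and *rplp2* (−0.05, adjusted p = 0.884). At an unadjusted p below 0.05 no member was lower. The mature neutrophil-like class was made up mostly of cluster 14 in libraries 1 and 2 and of cluster 2 in libraries 3 and 4. It held 381, 427, 1639 and 1532 cells in libraries 1 to 4, and the other neutrophil-like class held 1827, 2093, 85 and 91. The split between these classes thus differed between the library pairs. Whether the mature class is the same population in both pairs was not tested.

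*rpl22l1*, a paralogue of *rpl22*, had the largest fold change. It stood at 1157, 1100, 680 and 668 CPM in HSPC-like cells, against 91.4, 82.8, 45.8 and 49.0 CPM in mature neutrophil-like cells. Every HSPC-like value was above every mature neutrophil-like value (log2 fold change 3.47, SE 0.35, adjusted p = 2.86e-05). *rpl22* itself had 2740, 2579, 1689 and 1532 CPM in HSPC-like cells, against 1226, 1167, 625 and 619 CPM in mature neutrophil-like cells, which do not overlap, with the smallest fold change among the members called (0.94, adjusted p = 0.0352). In zebrafish embryos both proteins have been described as acting in opposite directions on the emergence of blood stem cells.

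The stalk proteins differed between paralogues. *rplp2l* had 6017, 5700, 3746 and 3607 CPM in HSPC-like cells, against 690, 698, 583 and 585 CPM in mature neutrophil-like cells, which lay far apart (log2 fold change 2.61, adjusted p = 2.53e-05). *rplp2* had 2153, 2319, 1738 and 1911 CPM in HSPC-like cells, against 2121, 2220, 1153 and 1306 CPM in mature neutrophil-like cells. The HSPC-like value was higher in each library, but the groups overlapped, and on edgeR's TMM scale the log2 fold change was −0.13 within libraries 1 and 2 and 0.19 within libraries 3 and 4. *rpl7l1*, an *rpl7*-like gene, was the other member with a large change (log2 fold change 2.79, adjusted p = 6.40e-05).

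Cycling neutrophil-like cells, the neutrophil class with cycling markers at 2502 to 3040 CPM, held 2.01 times the share of mature neutrophil-like cells, in which those markers were at 30.8 to 36.7 CPM. The share was 15.5%, 16.2%, 11.1% and 10.9% in cycling neutrophil-like cells, against 7.96%, 7.84%, 5.47% and 5.48% in mature neutrophil-like cells, without overlap. Means were 13.4 ± 2.83% and 6.68 ± 1.40%, with a difference of 6.74 points (exact permutation p = 0.0286, adjusted p = 0.05, 4 of 4 libraries). Of 82 members 65 were called higher and 0 lower (all genes: 22.3% higher and 19.7% lower). With the library as a block 80 were called higher (all genes: 3652 of 11780). The medians were 1.02 over members and −0.02 over all genes. The groups did not overlap in 65 members, a count not made over all genes. No member was lower at an unadjusted p below 0.05. When classes were instead gated by marker genes alone, the difference was 3.28 points and lost its call (adjusted p = 0.24), as it did without the highest doublet scores (6.58 points, adjusted p = 0.0667).

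The mature neutrophil-like sums were the same ones as for HSPC-like cells. *rpl22l1* had the highest fold change, with 401, 470, 230 and 242 CPM in cycling neutrophil-like cells, against 91.4, 82.8, 45.8 and 49.0 CPM in mature neutrophil-like cells (log2 fold change 2.31, adjusted p = 0.000822), followed by *rplp2l* (1.74, adjusted p = 0.000248) and *rpl7l1* (1.69, adjusted p = 0.000296). The lowest fold changes were those of *rplp2* (−0.06, adjusted p = 0.897), *rps19bp1* (0.27, adjusted p = 0.350) and *rpl22* (0.40, adjusted p = 0.378). *rplp2* had 2025, 1995, 1289 and 1383 CPM in cycling neutrophil-like cells and 2121, 2220, 1153 and 1306 CPM in mature neutrophil-like cells. It was higher in the cycling class in 2 of 4 libraries, and the groups overlapped.

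**Figure D3:**
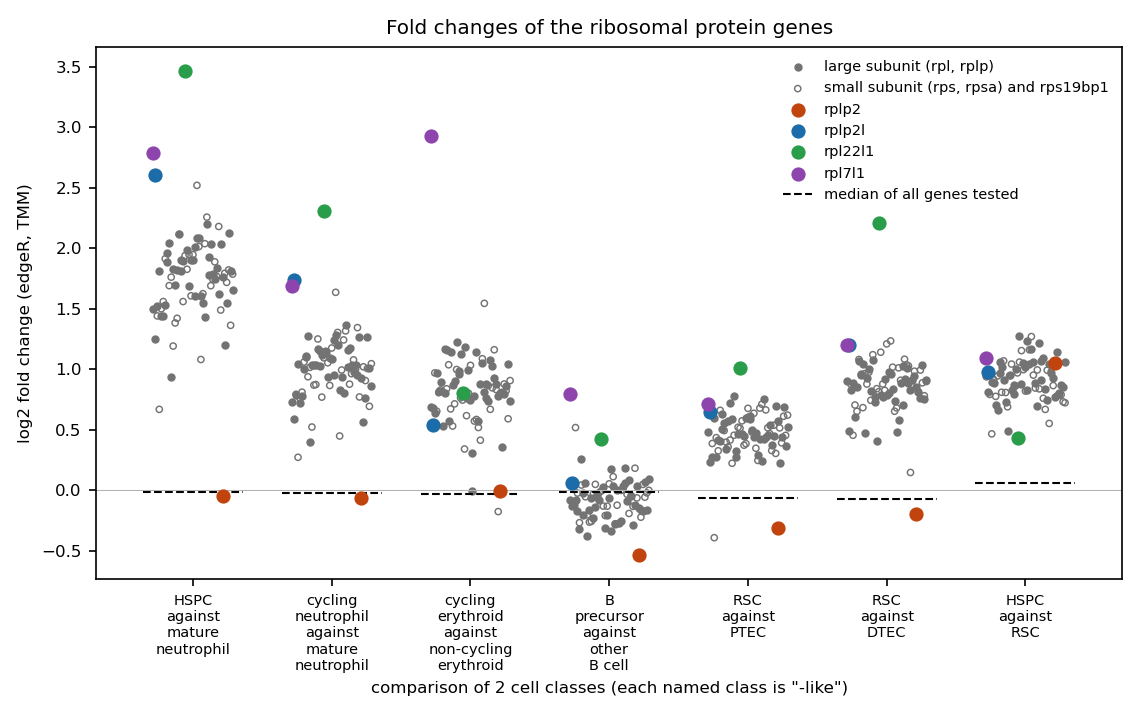
Log2 fold change from edgeR (y axis) of each of the 82 ribosomal protein genes tested, in each of 7 comparisons (x axis). Filled grey points are large-subunit genes and open points small-subunit genes and rps19bp1, coloured points mark 4 genes named in the text, and dashed lines give the median of all genes tested. Most members lie above that line in 6 comparisons and around it for B precursor-like cells, and rplp2 is near or below 0 on this scale in all but HSPC-like against RSC-like cells, where it is 1.05.

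Along the erythroid lineage, cycling cells held 3.03 times the ribosomal protein share of non-cycling cells. The share averaged 22.01 ± 4.22% in cycling erythroid-like cells and 7.27 ± 1.90% in non-cycling erythroid-like cells, a difference of 14.7 points in 4 of 4 libraries, without overlap (exact permutation p = 0.0286, adjusted p = 0.05). Globin mRNA took 14.0% to 15.2% of UMIs in cycling and 33.5% to 42.4% in non-cycling erythroid-like cells. With globin and mitochondrial genes left out of the total, the shares were 28.4 ± 3.08% in cycling and 13.2 ± 3.33% in non-cycling cells, and the ratio was 2.15. The non-cycling class was cluster 11 alone in libraries 1 and 2 (384 and 460 cells). In libraries 3 and 4 it was mostly cluster 18 (301 and 239 cells), which came only from these libraries, with 35 and 30 cells of cluster 11. Whether both clusters hold the same kind of cell was not tested. Unnamed cluster 1 (3308 cells) scored highest for erythroid markers but did not meet the naming rule, and was not part of this comparison.

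Of 82 members 42 were called higher and 0 lower (all genes: 25.8% higher and 20.2% lower), among them 28 of 48 large-subunit and 14 of 33 small-subunit genes. In CPM, which scales by library size alone, all 82 were higher in 4 of 4 libraries and their groups did not overlap. Neither was counted over all genes. The median log2 fold change was 0.81 over members and −0.03 over all genes tested. With the library as a block 77 members were called higher (all genes: 2932 of 9290). Scaling by library size alone called all 82, with the median of all genes at 0.76. On that scale 4308 of all 9290 genes tested were called higher and 660 lower. No member was lower at an unadjusted p below 0.05. When classes were gated by markers alone, the shares were 20.7% in the cycling and 19.1% in the non-cycling gate and the call was lost (adjusted p = 0.543). Without the highest doublet scores the difference was 14.8 points (adjusted p = 0.0667).

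*rpl7l1* changed most, with 127, 117, 51.8 and 53.3 CPM in cycling erythroid-like cells, against 6.21, 10.2, 3.63 and 6.27 CPM in non-cycling erythroid-like cells. The groups were far apart (log2 fold change 2.93, SE 0.43, adjusted p = 0.000548). *rps9* (1.55, adjusted p = 0.00432) and *rpl5b* (1.22, adjusted p = 0.00101), whose product binds 5S ribosomal RNA, followed. The smallest changes were in *rpsa* (−0.18), *rplp0* (−0.01), the central protein of the stalk, and *rplp2* (0.00, with an adjusted p of 0.997). In CPM these were still higher in cycling cells: *rpsa* had 2743, 2511, 1772 and 1797 CPM in cycling erythroid-like cells, against 1687, 1637, 1130 and 1169 CPM in non-cycling erythroid-like cells. The sign of their fold change followed the scaling, and with library size alone it was 0.65 for *rpsa*, 0.82 for *rplp0* and 0.82 for *rplp2*.

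In the B lineage the shares of both classes lay close together. The share was 22.4%, 21.4%, 14.6% and 14.0% in B precursor-like cells, against 21.7%, 20.9%, 12.8% and 12.8% in other B cell-like cells. The precursors were higher in each library, by 1.09 points on average, but the groups overlapped (18.1 ± 4.42% and 17.0 ± 4.93%, exact permutation p = 0.543). Paired by library, the difference was 1.09 ± 0.587 points (SD of 4 differences, exact sign-flip p = 0.125, the smallest this test can give with 4 libraries). Cycling markers summed to 4587 to 5755 CPM in B precursor-like cells, against 29.0 to 47.8 CPM in other B cell-like cells. This pair differed in cycling markers, as the neutrophil and erythroid pairs did, and how cycling relates to the share was not tested.

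Of 82 members 1 was called higher and 0 lower (all genes: 22% higher and 18.4% lower). It was *rpl7l1*, with 103, 80.1, 52.6 and 69.99 CPM in B precursor-like cells, against 48.9, 49.7, 22.7 and 37.1 CPM in other B cell-like cells, without overlap (log2 fold change 0.79, adjusted p = 0.0451). This call was lost without library 1, 2 or 4 (0 members called in each case), and 0 members were called by DESeq2, without high doublet scores or without mitochondrial and globin genes. At an unadjusted p below 0.05, 1 member passed in edgeR. The median log2 fold change was −0.06 over members and −0.01 over all genes. With the library as a block, 2403 of all 8675 genes tested were called higher and 2339 lower. Among the 82 members 6 were called higher and 20 lower, neither a larger share than among all genes. The lower ones reached −0.50 for *rplp2* (adjusted p = 0.000328), −0.35 for *rpl22* (adjusted p = 0.00192) and −0.34 for *rpl12* (adjusted p = 0.000907), a protein at the base of the stalk. *rplp2* had 2033, 2181, 1509 and 1469 CPM in B precursor-like cells and 2927, 2963, 1549 and 1780 CPM in other B cell-like cells, lower in the precursors in 4 of 4 libraries.

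In the nephron lineage the RSC-like cells held about 2 to 3 times the share of tubule cells. Against PTEC-like cells, the share averaged 17.2 ± 5.57% in RSC-like and 8.36 ± 3.80% in PTEC-like cells, a difference of 8.82 points that was present in 4 of 4 libraries (ratio 1.74 to 2.46), with 1 overlap between the groups, of RSC-like library 4 with PTEC-like library 2 (exact permutation p = 0.0571, adjusted p = 0.0667). Paired by library it was 8.82 ± 2.09 points (SD of 4 differences, exact sign-flip p = 0.125). With mitochondrial genes left out of the total, the difference was 8.98 points and passed (adjusted p = 0.0333). The mitochondrial share was 7.76%, 7.24%, 20.2% and 25.2% in RSC-like cells and 11.6%, 12.6%, 38.4% and 42.9% in PTEC-like cells.

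Of 82 members 1 was called higher and 0 lower (all genes: 17% higher and 23.6% lower), and 4 passed at an unadjusted p below 0.05. It was *rpl31*, with 2060, 1665, 1477 and 1547 CPM in RSC-like cells, against 819, 815, 582 and 508 CPM in PTEC-like cells, without overlap (log2 fold change 0.73, adjusted p = 0.0486). Leaving out any 1 of the 4 libraries, or the highest doublet scores, left 0 calls, and DESeq2 called 2. The median log2 fold change was 0.47 over members and −0.06 over all genes. With the library as a block 64 members were called higher and 0 lower (all genes: 1571 and 2106 of 8111). The largest fold change was that of *rpl22l1*, which had 1080, 986, 502 and 618 CPM in RSC-like cells, against 363, 432, 133 and 149 CPM in PTEC-like cells (1.01, adjusted p = 0.0661, blocked adjusted p = 0.00137). *rpl5b* (0.78) and *rplp1* (0.76) followed, and *rps19bp1* (−0.39), *rplp2* (−0.31) and *rpl19* (0.22) had the smallest values, with adjusted p from 0.489 to 0.778 for the last 3. Leaving out the follicle-like cells changed the calls to 2 and the difference in share to 10.2 points (adjusted p = 0.08), and leaving out 24 PTEC-like cells rich in liver transcripts changed them to 5.

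Against DTEC-like cells the difference was larger. The share averaged 17.2 ± 5.57% in RSC-like and 6.53 ± 3.69% in DTEC-like cells, a difference of 10.7 points without overlap (exact permutation p = 0.0286, adjusted p = 0.05, ratio 2.16 to 3.67). Without the follicle-like cells it was 12.1 points (adjusted p = 0.05). The call was lost with classes gated by markers alone (11.2 points, adjusted p = 0.1) and without the highest doublet scores (11.5 points, adjusted p = 0.1). The mitochondrial share of DTEC-like cells was 19.7%, 21.6%, 52.1% and 54.9%, and without mitochondrial genes the shares were 19.9 ± 4.51% in RSC-like and 9.72 ± 2.92% in DTEC-like cells. Of 82 members 27 were called higher and 0 lower (all genes: 18.8% higher and 22.7% lower). With the library as a block 79 were called higher (all genes: 1737 of 8267). The median was 0.89 over members and −0.07 over all genes. The groups did not overlap in 51 members, a count not made over all genes. No member was lower at an unadjusted p below 0.05. Leaving out a library lowered the count: 7, 1 and 6 members were called without library 1, 2 or 3, and 21 without library 4. Without library 1, 2 or 3, larger shares of all genes were called higher (1313 of 8397, 1072 of 8377 and 1151 of 8437). The member count was 75 in libraries 1 and 2 alone (all genes: 1617 of 9144 higher) and 69 in libraries 3 and 4 alone (1792 of 11551). Why these runs differ was not tested. Without the highest doublet scores 8 members were called, a share near that of all genes (743 of 6916). Without the follicle-like cells 39 were called (all genes: 1581 of 7744 higher). Without a filter on low counts 1 member was called higher and 1 lower (all genes: 1502 and 2781 of 24944).

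*rpl22l1* had the highest fold change, with 1080, 986, 502 and 618 CPM in RSC-like cells, against 219, 169, 54.9 and 46.8 CPM in DTEC-like cells, without overlap (log2 fold change 2.21, SE 0.40, adjusted p = 0.00149). *rps12* (1.24, adjusted p = 0.0673) and *rps8a* (1.21, adjusted p = 0.0361), small-subunit proteins, came next. *rplp2l* had 3763, 3364, 2093 and 2312 CPM in RSC-like cells, against 1422, 1128, 506 and 393 CPM in DTEC-like cells, without overlap (1.2, adjusted p = 0.0202). The lowest values were those of *rplp2* (−0.20), *rps27.2* (0.15) and *rpl17* (0.41), of which none was called. *rplp2* had 1505, 1466, 878 and 813 CPM in RSC-like cells, against 1297, 1149, 520 and 596 CPM in DTEC-like cells, and the groups overlapped.

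The stem cell classes of the lineages were also set side by side. The share was 32.3%, 31.6%, 22.8% and 21.8% in HSPC-like cells, against 22.6%, 21.2%, 13.3% and 11.5% in RSC-like cells, higher by 9.98 points on average and in 4 of 4 libraries. The groups overlapped, since RSC-like library 1 was above HSPC-like library 4 (exact permutation p = 0.0571, adjusted p = 0.0667). Paired by library the difference was 9.98 ± 0.447 points (SD of 4 differences, exact sign-flip p = 0.125). Without mitochondrial genes in the total the difference was 10.2 points and passed (adjusted p = 0.0333), and without the follicle-like cells it was 8.57 points and did not (adjusted p = 0.2). Of 82 members 30 were called higher and 0 lower (all genes: 10.2% higher and 14.5% lower). The median was 0.91 over members and 0.06 over all genes. No member was lower at an unadjusted p below 0.05. With the library as a block 81 were called higher (all genes: 1579 of 11259), and by DESeq2 64 (all genes: 1500 of 25775). By library size alone 6 were called higher, a share near that of all genes (698 of 11259). Without the highest doublet scores 0 were called (all genes: 749 of 10265 higher), and 19 passed at an unadjusted p below 0.05. Without library 1, 2 or 3 the calls were 8, 7 and 16, without library 4 they were 21, and without the follicle-like cells they were 16.

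The member fold changes lay between 0.43 and 1.28. *rpl27a* (1.28, adjusted p = 0.0204) had the largest fold change, and *rplp0* (1.23, adjusted p = 0.0124) was among the 3 largest. *rplp0* had 3927, 3692, 2703 and 2605 CPM in HSPC-like cells, against 2271, 1880, 1377 and 1034 CPM in RSC-like cells, without overlap. *rpl22l1* had the smallest (0.43, adjusted p = 0.398), with 1157, 1100, 680 and 668 CPM in HSPC-like cells and 1080, 986, 502 and 618 CPM in RSC-like cells, which overlap. *rps19bp1* (0.47) and *rpl31* (0.49) were the next lowest. *rplp2*, not called in the other 6 comparisons without the block, was called higher here (1.05, adjusted p = 0.0177).

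Paralogues were then compared within pairs, as the share of the pair's UMIs that fell to the second gene. Such a share is free of the total and of the mitochondrial share. How the counting treated reads that match both genes of a pair is not given in the sources used here, so levels of close paralogues are uncertain. Of 49 tests over 7 pairs and 7 comparisons, 20 reached the smallest possible p of 0.0286 and their adjusted p was 0.07, so that 0 passed 0.05 after adjustment. The differences had the same sign in both pairs of libraries in 37 of the 49.

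The *rpl22l1* share of *rpl22* and *rpl22l1* was 29.7 ± 0.71% in HSPC-like, 21.3 ± 1.35% in cycling neutrophil-like and 6.93 ± 0.30% in mature neutrophil-like cells (SD, n = 4 each). In the B lineage it was 28.8 ± 0.64% in B precursor-like and 18.6 ± 1.15% in other B cell-like cells, a difference of 10.2 points in 4 of 4 libraries (exact permutation p = 0.0286, adjusted p = 0.07), although the total ribosomal protein share of these classes overlapped. In the nephron it was 37.6 ± 3.91% in RSC-like, 26.7 ± 1.69% in PTEC-like and 14.7 ± 1.26% in DTEC-like cells. It was lower in HSPC-like than in RSC-like cells by 7.91 points on average. In erythroid-like cells it was high in both states, at 37.8 ± 1.87% in cycling and 33.9 ± 1.78% in non-cycling cells.

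The *rplp2l* share of *rplp2* and *rplp2l* was 69.6 ± 3.57% in HSPC-like, 56.6 ± 1.28% in cycling neutrophil-like and 28.2 ± 4.77% in mature neutrophil-like cells. It was 66.7 ± 1.79% in cycling and 57.4 ± 2.89% in non-cycling erythroid-like cells, and 62.8 ± 3.01% in B precursor-like and 53.2 ± 2.49% in other B cell-like cells. In the nephron it was 71.4 ± 1.88% in RSC-like, 55.9 ± 3.93% in PTEC-like and 47.7 ± 5.49% in DTEC-like cells. HSPC-like and RSC-like cells differed by −1.78 points, with 2 libraries in each direction (exact permutation p = 0.429, adjusted p = 0.618). The fish gene named *rplp2l* thus held most of the pair's UMIs in both stem cell classes, and *rplp2* held most in mature neutrophil-like cells.

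**Figure D4:**
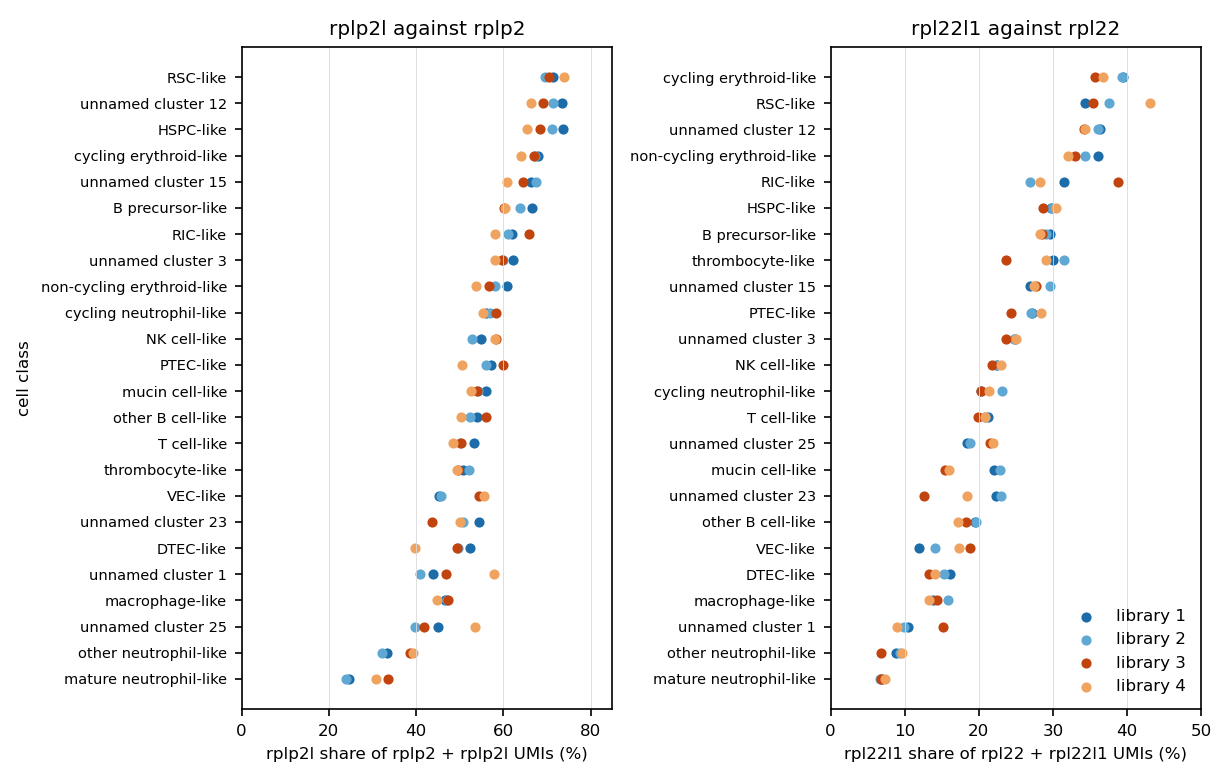
Share of the pair's UMIs (x axis, %) held by rplp2l, of rplp2 and rplp2l (left), and by rpl22l1, of rpl22 and rpl22l1 (right), in 24 cell classes (y axis, in order of their mean), with 1 point per library. Mature neutrophil-like cells are lowest in both panels, at means of 28.2% and 6.93%, and RSC-like cells are first on the left (71.4%) and among the first on the right (37.6%).

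The *rps26l* share of *rps26* and *rps26l* was 73.0 ± 1.49% in HSPC-like and 64.6 ± 1.78% in mature neutrophil-like cells. The *rps27.2* share of *rps27.1* and *rps27.2* was 38.7 ± 5.17% in cycling and 28.1 ± 4.42% in non-cycling erythroid-like cells, and 45.7 ± 7.01% in RSC-like and 55.0 ± 7.01% in DTEC-like cells. The *rpl7l1* share of *rpl7* and *rpl7l1* was 2.19 ± 0.46% in cycling and 0.553 ± 0.177% in non-cycling erythroid-like cells. The *rpl5b* share of *rpl5a* and *rpl5b* was 56.7 ± 2.71% in RSC-like and 49.9 ± 1.54% in PTEC-like cells, and 52.9 ± 5.72% in cycling and 42.3 ± 7.63% in non-cycling erythroid-like cells, higher in the cycling class in 4 of 4 libraries with groups that overlapped (exact permutation p = 0.114, adjusted p = 0.233). *rps8b* held 0 of the 3081 UMIs of *rps8a* and *rps8b* in RSC-like cells, which allows up to 0.0974%, and 0.563 ± 0.176% in DTEC-like cells, its highest share among the classes compared.

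The remaining genes of translation were counted from lists in the same fits. Of all genes tested, 30.4%, 22.3%, 25.8%, 22%, 17%, 18.8% and 10.2% were called higher in the 7 comparisons in the order above, and 29.4%, 19.7%, 20.2%, 18.4%, 23.6%, 22.7% and 14.5% lower. The list of 50 genes for ribosomal RNA processing and the nucleolus had a higher median fold change than the ribosomal protein genes in each of the 7 comparisons. Between HSPC-like and mature neutrophil-like cells 50 of 50 were called higher, with a median log2 fold change of 3.01, a largest value of 4.75 for *dkc1* (dyskerin, a pseudouridine synthase that modifies ribosomal RNA) and a smallest of 1.06 for *utp18*. In cycling against mature neutrophil-like cells 44 of 50 were called higher (median 1.68), and in cycling against non-cycling erythroid-like cells 49 of 50 (median 3.44, led by *rrp9* at 5.08). In B precursor-like cells 32 of 48 were called higher and 1, *ddx21*, lower (median 0.90, edgeR adjusted p = 0.00221 for *ddx21*). Of the 82 members only 1, *rpl7l1*, was called higher there. RSC-like cells had 16 of 46 called higher against PTEC-like cells (median 0.57), and 38 of 45 against DTEC-like cells (median 1.44, led by *nop10* at 2.58). HSPC-like against RSC-like cells gave 29 of 50 (median 0.99, led by *mybbp1a* at 1.82). No gene of this list was called lower in the other 6 comparisons.

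Mitochondrial ribosomal protein genes serve the ribosome inside mitochondria. They were called higher in 66 of 74 for HSPC-like and 54 of 74 for cycling neutrophil-like, each against mature neutrophil-like cells. The counts were 52 of 74 for cycling erythroid-like and 43 of 73 for B precursor-like cells, with *mrpl12* (2.85, 1.76 and 3.56 in the first 3 comparisons) and *mrpl43* (1.93 in B precursor-like cells) in front. In RSC-like cells 0 of 73 were called higher and 18 (24.7%) lower against PTEC-like cells, a share near the 23.6% of all genes called lower there (median −0.67, lowest *mrps36* at −2.22, edgeR adjusted p = 0.00715), and 0 higher and 3 (4.11%, against 22.7% of all genes) lower against DTEC-like cells (median −0.23). HSPC-like against RSC-like cells gave 4 of 74 higher and 0 lower (median 0.39).

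Initiation factors bring the ribosome to the mRNA. A larger share of them than of all genes was called higher in every comparison but RSC-like against PTEC-like cells. Those shares ran from 22.2% (HSPC-like against RSC-like cells, all genes 10.2%) to 56.6% (HSPC-like against mature neutrophil-like cells, all genes 30.4%). A smaller share of them than of all genes was called lower in each comparison. In HSPC-like against mature neutrophil-like cells 30 of 53 were called higher and 2 lower, from *eif5a2* at 2.39 to *eif3hb* at −2.33. In the other comparisons 6 to 24 were called higher and 1 to 3 lower, and the lowest count was 6 of 51 (11.8%, against 17% of all genes) in RSC-like against PTEC-like cells. Elongation factors, which carry translation along the mRNA, gave 7 of 10 called higher and 1 lower in HSPC-like against mature neutrophil-like cells, led by *eef1a1a* (4.2). In erythroid-like cells 4 of 9 were called higher and 2 lower, with *eef1a1l2* at −2.59 (adjusted p = 0.000208).

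Ribosomal genes whose symbols fall outside the rule include *faua* and *faub* (for Rps30) and *gnb2l1* (for Rack1). *faua* and *gnb2l1* were called higher in HSPC-like cells (2.01 and 1.78) and in cycling neutrophil-like cells (1.1 and 1.08), each against mature neutrophil-like cells, in which comparisons *faub* was not called. *faub* was called lower in RSC-like than in PTEC-like cells (−2.04, edgeR adjusted p = 0.00162). A further list was drawn up by gene name for other TOP mRNAs, and whether each of its mRNAs carries a TOP tract was not checked. Of its 6 genes tested, 4 were called higher in HSPC-like and 2 in cycling neutrophil-like cells against mature neutrophil-like cells, and 0 lower. The counts were 1 higher in cycling erythroid-like cells (*btf3l4*, 2.15), 1 higher and 2 lower in B precursor-like cells (lowest *btf3* at −0.61, adjusted p = 0.0191), and 4 higher in HSPC-like against RSC-like cells (highest *btf3* at 1). *pabpc1b*, a poly(A) binding protein, was called higher in HSPC-like than in mature neutrophil-like cells (2.68, adjusted p = 4.05e-05) and in RSC-like than in PTEC-like cells (1.61, adjusted p = 0.0241), and lower in RSC-like than in DTEC-like cells (−1.79, adjusted p = 0.00459). *tpt1* had log2 fold changes of −0.45 and −0.47 in HSPC-like and cycling neutrophil-like cells against mature neutrophil-like cells and was not called.

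**Figure D5:**
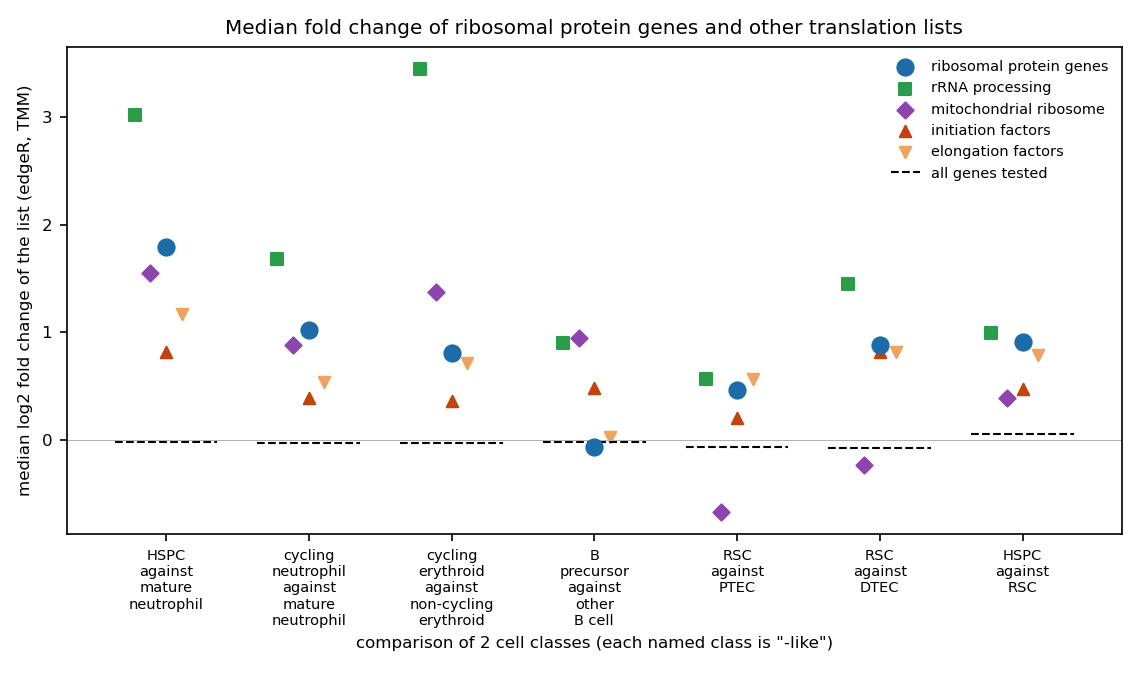
Median log2 fold change (y axis, edgeR) of the 82 ribosomal protein genes and of 4 other lists of translation genes in each of 7 comparisons (x axis), with the median of all genes tested as a dashed line. Genes for ribosomal RNA processing lie above the ribosomal protein genes in every comparison, with medians from 0.57 to 3.44, and mitochondrial ribosomal protein genes lie below 0 in RSC-like cells against both tubule classes.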

How the data were processed

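Kidney cells of 4 libraries were measured by scRNA-seq. Counts of UMIs were deposited by the authors for each gene in each cell, as whole numbers with no normalization. They assessed read quality with fastp and used UMI-tools for barcodes, mapping and counting. GRCz11, UMI-tools and Seurat 4.2 stand in the submitters' processing notes, and the sources used here give neither the aligner nor the treatment of multi-mapped reads.

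All 31008 deposited barcodes were used, with median depths of 4358 to 9954 UMIs per cell, and the sums of the classes compared held at least 266919 UMIs. Cells were clustered in Seurat 5.3.0 (R 4.3.3) with genes scaled within libraries (2000 variable genes, 30 components, resolution 0.6), leaving out ribosomal protein, mitochondrial and listed translation genes. Clusters were named by markers when their mean log2 ratio to other cells (pseudocount 10 CPM) was at least 1 and led the next list by 0.5, with 3 or more markers. A cluster stayed unnamed if another list had more markers among its 10 leading genes. It also stayed unnamed if none of its own markers was among them and its cells were shallow for their libraries. Cluster 1, whose best list was erythroid (mean log2 ratio 1.76), was left unnamed in this way. Scrublet (scanpy 1.11.5) called 6 doublets and so was taken not to have worked. The 6% of cells with the highest scores were instead removed as an alternative.

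Counts were summed per class and library, leaving out sums of under 3 cells, and tested with edgeR 4.0.16 (TMM, filterByExpr, quasi-likelihood, Benjamini-Hochberg). DESeq2 1.42.0 was an alternative. The edgeR step was tested on simulated counts for 2 of the comparisons. Deviations of same-library sums from class means correlated at 0.41 to 0.88 in all 7 comparisons, and both sums come from the same library, so libraries pair the classes.

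Genes named were the 5 highest and 5 lowest by mean level, the 3 highest and 3 lowest fold changes of each comparison, paralogue pairs, members called against the group's direction, the extremes of other lists, and genes of the 2 shortest lists, of which some are not reported here. Further members (*rpl19* as not called, *rpl31*, *rplp2l*) were named where a count of 5 or fewer or a text comparison needed them. The members and lists were chosen with earlier results of these data known. The reference tables held no sequences and another assembly, so symbols were used as deposited.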

Additional observations from a re-analysis of the deposited data

How the results depend on the processing

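The ribosomal protein share was higher in the stem, precursor or cycling class of each comparison under every alternative run except 1. With classes gated by markers alone the B lineage difference was −1.87 points, and the calls for HSPC-like (21.0 points) and cycling neutrophil-like (3.28) against mature neutrophil-like, for cycling erythroid-like (1.64) and for RSC-like against DTEC-like cells (11.2) were lost. Without the 6% highest doublet scores the same 4 differences were 20.5, 6.58, 14.8 and 11.5 points, with adjusted p of 0.0667 or 0.1. Each adjusted p also depends on the other comparisons, so a lost call need not mean a smaller difference. The RSC-like against PTEC-like and HSPC-like against RSC-like differences passed without mitochondrial genes in the total (8.98 and 10.2 points), without mitochondrial and globin genes (9.03 and 10.2) and as medians over cells (7.38 and 14.3). With a library left out the smallest possible p is 0.1, and with 2 libraries 0.333, so those tests say nothing about calls. The exact sign-flip test with the library as a block cannot go below 0.125. The paralogue shares were not tested within the library pairs, where the smallest possible p is also 0.333. Counts of called members moved most. For cycling erythroid-like cells (42) they were 82 by library size, 67 without a filter on low counts, 77 with the library as a block, 77 in libraries 1 and 2 (76 higher, 1 lower), and 81 in libraries 3 and 4. For B precursor-like cells (1) they were 1 by library size (median turned positive), 0 by DESeq2, 26 with the block (6 higher, 20 lower), 0 without high doublet scores, 0 without mitochondrial and globin genes, 20 in libraries 1 and 2 (2 higher, 18 lower), 11 in libraries 3 and 4 (7 higher, 4 lower, median turned positive), and 0 to 1 without single libraries. For RSC-like against PTEC-like cells (1) the same steps gave 20, 2 (DESeq2), 0 (no filter), 64 (block), 2 (libraries scaled together), 0 (doublet scores), 18, 28, 2 (without follicle-like cells), 5 (without liver-gene cells) and 0 to 0 without single libraries. For RSC-like against DTEC-like cells (27) they gave 47 by library size, 2 without a filter (1 higher, 1 lower), 79 with the block, 8 without high doublet scores, 42 without mitochondrial and globin genes, 75 and 69 in the 2 library pairs, and 1 to 21 without single libraries. For HSPC-like against RSC-like cells (30) they gave 6 by library size, 64 by DESeq2, 76 without a filter, 81 with the block, 0 without high doublet scores (19 at an unadjusted p below 0.05), 81 and 80 in the library pairs, 16 without follicle-like cells, and 7 to 21 without single libraries. Some of these counts were near or below the share of all genes called in the same run. All genes gave, for B precursor-like cells, 2403 higher and 2339 lower of 8675 with the block, and 1949 and 1841 of 8411 in libraries 1 and 2. By library size 2754 of 8111 were higher against PTEC-like cells, and 698 of 11259 for HSPC-like against RSC-like cells. The 2 cell removals were chosen after seeing the data. Scaling by library size shifts the median of all genes by 0.31, 0.03, 0.76, 0.16, 0.56, 0.65 and −0.23 in the order of the text, and the cause of the other moves was not tested. The signs that turned were all of uncalled members. *rplp2* against mature neutrophil-like cells turned, for HSPC-like cells, to 0.26 (library size), 0.024 (DESeq2), 0.059 (no filter), 0.033 (libraries scaled together) and 0.19 (libraries 3 and 4), and lay between −0.15 and 0.083 without single libraries. For cycling neutrophil-like cells it turned to 0.052 (scaled together) and 0.040 (libraries 3 and 4) and lay between −0.080 and 0.0067 without single libraries, and *rps19bp1* turned to −0.022 (scaled together). In erythroid-like cells *rpsa* turned to 0.65 (library size), 0.16 (no filter) and 0.085 (libraries 3 and 4). *rplp0* and *rplp2* turned to 0.82 and 0.82 (library size), 0.054 and 0.061 (DESeq2), 0.32 and 0.33 (no filter), 0.031 and 0.036 (block), 0.056 and 0.062 (without mitochondrial and globin genes) and 0.33 and 0.35 (libraries 3 and 4), and *rplp2* to 0.041 (scaled together). Without single libraries they lay between −0.061 and 0.12 (*rplp0*) and between −0.056 and 0.13 (*rplp2*). Against PTEC-like cells *rps19bp1* turned to 0.21 (library size) and 0.032 (libraries 1 and 2) and *rplp2* to 0.28 (library size). Against DTEC-like cells *rplp2* turned to 0.45 (library size) and *rps27.2* to −0.048 (no filter). Of the other values of single members, 460 kept their direction and side of the threshold, 52 passed it and 22 lost it. The RSC-like class, with 18 to 57 cells per library, limits what its comparisons can show.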
